A study of Mus musculus with 8 samples.

Results

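The small leucine-rich proteoglycans were examined as 10 genes, Bgn, Dcn, Aspn, Fmod, Lum, Prelp, Omd, Ogn, Podn and Podnl1, chosen by symbol from the 23284 mouse symbols listed in each of 8 count tables. All 10 were listed, 7 had enough reads to be tested, and Lum, Aspn and Omd did not. The cells were ID8 IP2, a line derived from mouse ovarian surface epithelium (ID8) by passage in mice, carrying a lentivirus for luciferase and mCherry in every line. The Notch3IC lines also received a pCCL lentivirus with the HA-tagged intracellular domain of Notch3, which signals without ligand, followed by an IRES and GFP, and the Control lines received the empty pCCL vector. Each of Sets 1 to 4 is a separate infection of the same parental line that gave 1 Control and 1 Notch3IC line, so each condition had 4 libraries, made from polyadenylated RNA of cultured cells without a host animal. Expression of the transgene came from the viral vector and not from the Notch3 locus, and by the study's methods tests done afterwards pointed to mycoplasma in every ID8 IP2 line.

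Small leucine-rich proteoglycans are secreted matrix proteins whose curved core of leucine-rich repeats binds collagen fibrils and helps set their diameter and spacing. Many carry chondroitin, dermatan or keratan sulfate chains, and released forms can bind growth factors and cell surface receptors, including receptors of innate immunity. Biglycan (Bgn), decorin (Dcn) and asporin (Aspn) are the class I members, fibromodulin (Fmod), lumican (Lum), Prelp and osteomodulin (Omd) are class II, osteoglycin (Ogn) is class III, and podocan (Podn) and podocan-like 1 (Podnl1) are class V. In the ovary and peritoneum these proteins are mostly known as products of stromal cells, and Dcn and Lum are among the abundant proteoglycans of fibrous connective tissue.

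Bgn, Fmod and Prelp rose in the Notch3IC lines, and these were the members called by edgeR in the comparison by condition alone. Ogn and Podnl1 were called as well when the set was fitted as a replicate block (adjusted p = 0.0337 and 0.0364 from edgeR). Fmod, a keratan sulfate proteoglycan that binds type I collagen, went from 51.4 ± 24.3 to 7063 ± 4382 normalized counts (SD, n = 4), Prelp from 6.68 ± 5.24 to 509 ± 442, and Bgn from 12330 ± 5097 to 39840 ± 14300. A gene was called when edgeR's quasi-likelihood test gave an adjusted p (Benjamini-Hochberg over all genes tested) under 0.1 with a log2 fold change beyond 1 in either direction, and normalized counts are counts scaled to the mean library size with TMM factors. By this rule, on condition alone, 3 of the 7 members tested were called higher and 0 lower, whereas the shares over the 12430 genes tested were 3.4% higher and 0.74% lower. At an unadjusted p under 0.05, 5 of the 7 were higher and 0 lower, beside 11.8% and 6.65% of all genes tested. The median log2 fold change of the 7 was 1.69, beside -0.01 over all genes tested. Prelp, with 2, 11, 3 and 11 counts in Control, passed the filter on low counts only through its Notch3IC libraries. Lum, Aspn and Omd did not pass and are missing from the 7 and from this median. Without the filter all 10 members were tested, and 3 were called higher and 0 lower. Over all genes that fit called 543 higher and 103 lower. All 8 libraries are bulk RNA, so a change in the number of cells that express a gene and a change in RNA per cell cannot be told apart.

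The 5′ flanks of the 3 called genes are shown to let their sequence be seen beside these values. Each is the 250 bases before the RefSeq start site on build GRCm38.p6, 5′ to 3′ on the gene's own strand. Bgn lies at chrX:73483351-73483600 (plus strand), Fmod at chr1:134037004-134037253 (plus strand) and Prelp at chr1:133921402-133921651 (minus strand). Capitals mark GGGCGG on either strand in Bgn and TGGGAA on either strand in Prelp.
Bgn: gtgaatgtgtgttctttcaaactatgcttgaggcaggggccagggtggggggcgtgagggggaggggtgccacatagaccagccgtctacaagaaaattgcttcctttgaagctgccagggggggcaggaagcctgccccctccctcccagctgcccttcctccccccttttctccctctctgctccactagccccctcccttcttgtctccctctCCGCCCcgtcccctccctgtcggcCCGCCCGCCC
Fmod: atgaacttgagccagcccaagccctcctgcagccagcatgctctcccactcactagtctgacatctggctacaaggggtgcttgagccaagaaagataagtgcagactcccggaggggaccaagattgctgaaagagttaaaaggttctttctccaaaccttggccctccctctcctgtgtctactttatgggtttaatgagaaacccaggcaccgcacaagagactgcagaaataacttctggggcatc
Prelp: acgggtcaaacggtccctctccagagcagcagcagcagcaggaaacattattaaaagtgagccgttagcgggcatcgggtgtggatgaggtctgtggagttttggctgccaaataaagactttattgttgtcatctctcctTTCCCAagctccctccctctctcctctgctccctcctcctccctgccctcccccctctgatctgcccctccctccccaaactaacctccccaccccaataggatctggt
Windows were present for 7 of the 10 members, Podn having a second one. GTGGGAA, a sequence of the kind that the Notch partner Rbpj binds, was searched on both strands and matched no member window, and 5.42% of the 32851 windows of this length held it. Its shorter core TGGGAA matched 1 site, 109 bases before the Prelp start, and 21.6% of all windows held it. CACGTG, a site of the kind bound by Hey and other basic helix-loop-helix factors, matched no member window, against 6.02% of all windows. GGGCGG, which Sp1-type factors bind, matched 3 sites in Bgn between 34 and 6 bases before the start, some of them overlapping, 2 in 1 window of Podn, and 32.7% of all windows. A match describes the letters only, and Dcn, Lum and Podnl1 had no window.

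The labels were checked with Notch3 and its target genes. Notch3 had 39, 34, 74 and 53 counts in Control (Sets 1 to 4 in order) and 3864, 319, 10026 and 6915 in the Notch3IC libraries (log2 fold change 6.69 ± 0.88 SE, adjusted p = 0.0169 from edgeR). A count per gene cannot separate the transgene from the cells' own Notch3. Hey1, a transcriptional repressor directly induced by Notch, rose by 7.35 on the log2 scale (adjusted p = 0.0169 from edgeR), and Heyl, a repressor of the same family, had no more than 2 counts in each Control library against 3285 ± 2821 normalized counts (SD, n = 4) in the Notch3IC libraries. The Notch3IC library of Set 2 had the fewest Notch3 counts of its group, and its log2 ratio to the matched Control was 3.51 for Notch3, against 6.79, 7.01 and 7.10 in Sets 1, 3 and 4. The library totals were 24910528, 19013578, 23601232 and 28208072 counts for Control and 22980440, 15524262, 25344051 and 27107061 for Notch3IC, in the order of the sets, so that library was also the shallowest.

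Among the class I members, Bgn rose, Dcn was not called and Aspn was near the limit of detection. Bgn encodes biglycan, a chondroitin and dermatan sulfate proteoglycan of many connective tissues whose soluble form can signal through Tlr2 and Tlr4. It had 17340, 16035, 8787 and 7175 normalized counts in Control (Sets 1 to 4 in order) and 57762, 22760, 39306 and 39526 in the Notch3IC libraries. The 2 groups did not overlap, although the lowest Notch3IC value, in Set 2, was not far above the Control libraries of Sets 1 and 2. The log2 fold change was 1.69 ± 0.37 (SE), with an adjusted p of 0.0464 from edgeR. Within the sets the log2 ratios were 1.74, 0.51, 2.16 and 2.46, all upward and smallest in Set 2. The call was lost without any 1 of the Control and Notch3IC libraries of Sets 3 and 4, with adjusted p between 0.117 and 0.146 (edgeR), and without the whole of Set 3 or Set 4 it was 0.323 and 0.370. Without Set 3 or Set 4 only 1 and 0 genes were called higher over all and 0 lower, so nearly all calls were lost with that of Bgn.

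Dcn, the decorin gene, encodes a proteoglycan with a single chondroitin or dermatan sulfate chain that binds collagen and can hold TGF-beta and engage Egfr and Met. It had 1009, 7862, 8629 and 6124 normalized counts in Control (Sets 1 to 4 in order) and 575, 5429, 6438 and 4664 in the Notch3IC libraries. Both libraries of Set 1 stood far below the other 6, so the spread between sets was much wider than the difference between conditions, and the groups overlapped. By condition alone the log2 fold change was -0.47 ± 0.76 (SE), with an adjusted p of 0.809 from edgeR. Within each set the Notch3IC library was nevertheless the lower one, by log2 ratios of -0.81, -0.53, -0.42 and -0.39. With the set as a replicate block the log2 fold change was -0.53 ± 0.08 (SE) and the adjusted p was 0.0275 from edgeR. That was under the threshold for p but short of the log2 fold change of 1, so that Dcn was called by neither fit. When Sets 1 to 4 were left out of the blocked fit in turn, the adjusted p was 0.117, 0.0107, 0.119 and 0.0982 (edgeR). Aspn, a calcium-binding relative of decorin that lacks glycosaminoglycan chains, had 2, 3, 3 and 3 counts in the Control libraries and 3, 1, 0 and 4 in the Notch3IC libraries, close to the floor of 3 counts, and no difference was detectable at this depth.

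**Figure D1:**
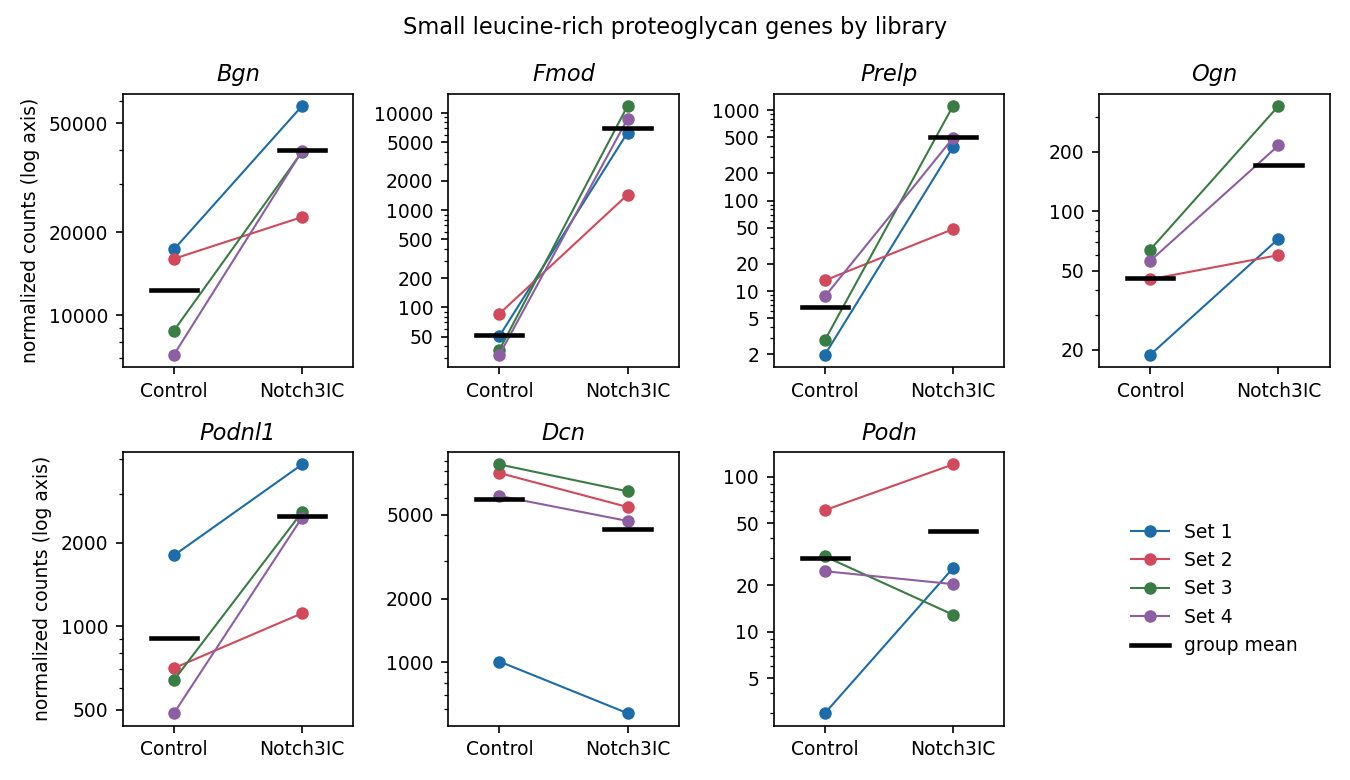
Normalized counts (log axis, a separate scale in each panel) of the 7 small leucine-rich proteoglycan genes tested, in Control and Notch3IC libraries. Points are libraries, lines join the 2 libraries of a set, and black bars are group means. The groups do not overlap for Bgn, Fmod and Prelp, and Dcn is lower in the Notch3IC library of every set.

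Class II held the members with the largest log2 fold changes and also members near zero. Fmod had 50.6, 86.0, 36.4 and 32.5 normalized counts in Control (Sets 1 to 4 in order) and 6277, 1442, 11827 and 8705 in the Notch3IC libraries. The lowest Notch3IC library, again Set 2, was still far above the highest Control library, which was the matched one of Set 2. For Fmod the log2 fold change was 7.13 ± 0.73 (SE), with an adjusted p of 0.0151 from edgeR. The log2 ratios within the sets were 6.94, 4.06, 8.33 and 8.04. Fmod was called in each of the 8 fits that left out 1 library, with an adjusted p of at most 0.0854, but in the fits that left out the whole of Set 3 or Set 4 it was 0.215 and 0.218. Over all genes, the fits without Set 3 or Set 4 called 1 and 0 higher. The label genes Notch3, Hey1 and Heyl also had adjusted p up to 0.221 when a whole set was left out (edgeR).

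Prelp encodes a basic, proline- and arginine-rich member that can anchor basement membranes to connective tissue. It had 2, 11, 3 and 11 counts in Control and 348, 33, 1206 and 581 in the Notch3IC libraries, before scaling. The groups did not overlap, but the Notch3IC library of Set 2 was the closest to the Control libraries. The log2 fold change was 6.26 ± 1.00 (SE), with an adjusted p of 0.0245 from edgeR. The log2 ratios rest on few Control counts and are given with their 95% counting intervals, which cover counting error only. They were 7.29 (5.75 to 10.7) in Set 1, 1.84 (0.86 to 3.01) in Set 2, 8.36 (7.04 to 10.9) in Set 3 and 5.74 (4.97 to 6.83) in Set 4. The call was lost narrowly without the Control library of Set 3 (adjusted p = 0.104) or of Set 4 (adjusted p = 0.1002). In the fits that left out the whole of Set 3 or Set 4 the adjusted p was 0.235 and 0.286 (edgeR), and 1 and 0 genes were called higher over all.

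Lum and Omd were hardly present. Lum, the lumican gene, encodes a keratan sulfate proteoglycan that keeps collagen fibrils ordered in the cornea, and it had 0, 2, 0 and 4 counts in the Control libraries and 0, 2, 0 and 2 in the Notch3IC libraries. Omd, an acidic member known from bone, had 2, 5, 3 and 5 counts in the Control libraries and 2, 7, 8 and 7 in the Notch3IC libraries. The ranges overlapped for both genes and neither passed the filter on low counts.

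Ogn and the podocan genes were not called by edgeR in the comparison by condition alone. DESeq2 called Ogn and Podnl1 (adjusted p = 0.0205 and 0.0232) but not Podn. Ogn encodes osteoglycin, also named mimecan, and had 18.8, 45.4, 64.1 and 56.3 normalized counts in Control (Sets 1 to 4 in order) and 72.7, 60.1, 341 and 215 in the Notch3IC libraries. The groups overlapped because the Notch3IC library of Set 2 was below the Control library of Set 3. The log2 fold change was 1.90 ± 0.61 (SE), with an adjusted p of 0.143 from edgeR. The log2 ratios were 1.92, 0.40, 2.40 and 1.93, and the 95% counting interval in Set 2, -0.27 to 1.08, included no change. With the set as a replicate block the log2 fold change was 1.74 ± 0.33 (SE) with an adjusted p of 0.0337 from edgeR, and Ogn was called, but not when Set 1, 3 or 4 was also left out (adjusted p = 0.137, 0.151 and 0.159).

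Podnl1, a relative of podocan known from bone and other connective tissue, had 1799, 707, 640 and 487 normalized counts in Control (Sets 1 to 4 in order) and 3818, 1114, 2574 and 2460 in the Notch3IC libraries. The groups overlapped through the high Control library of Set 1, and both libraries of that set were the highest of their group. The log2 fold change was 1.46 ± 0.48 (SE) with an adjusted p of 0.150 from edgeR, and the log2 ratios within the sets were 1.09, 0.66, 2.01 and 2.34. With the replicate block the log2 fold change was 1.53 ± 0.30 (SE) with an adjusted p of 0.0364 from edgeR, and Podnl1 was called, but not when Set 1, 3 or 4 was also left out (adjusted p = 0.129, 0.173 and 0.159). Podn, whose product slows smooth muscle growth, had 2.97, 60.9, 30.6 and 24.6 normalized counts in the Control libraries and 25.7, 120.2, 12.9 and 20.3 in the Notch3IC libraries. Set 2 was the highest in both groups, and the log2 ratios of 2.92, 0.98, -1.22 and -0.27 pointed upward in Sets 1 and 2 and downward in Sets 3 and 4. The log2 fold change was 0.57 ± 0.89 (SE), with an adjusted p of 0.800 from edgeR.

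**Figure D2:**
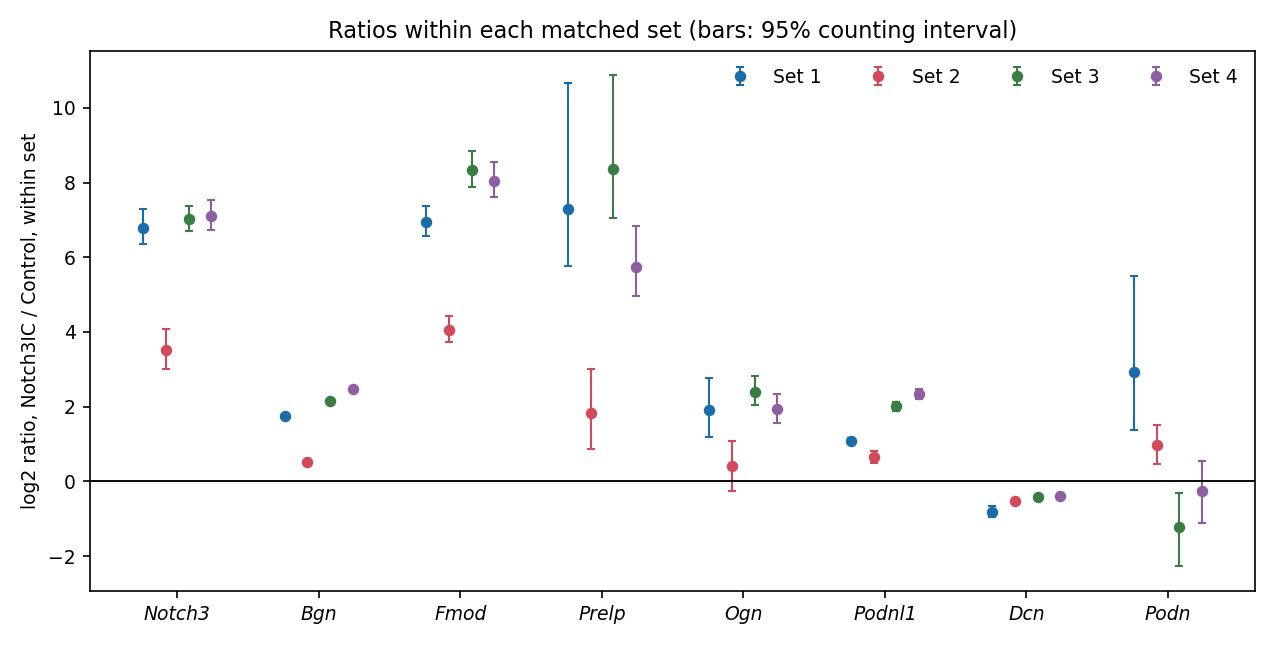
Log2 ratio of normalized counts, Notch3IC over Control, in each of the 4 matched sets for Notch3 and the 7 members tested. Points are sets and bars are 95% counting intervals, which leave out biological variation and are hidden by the point where counts are high. Set 2 has the smallest rise of Notch3, Bgn, Fmod, Prelp, Ogn and Podnl1, and Dcn is below 0 in every set.

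Agreement across the sets was read against all genes tested. Of the 7 members, 5 (Bgn, Fmod, Prelp, Ogn and Podnl1) were higher in the Notch3IC library of all 4 sets, as were 21% of all genes tested, and 1 (Dcn) was lower in all 4, as were 19.4%. The 2 groups of libraries were fully separated for 3 members, all higher in Notch3IC, beside 7.08% of all genes higher and 3.75% lower. With the replicate block 5 of the 7 were called higher and 0 lower (5.19% and 2.53% of all genes tested), and by DESeq2, which tested 9 members and 13958 genes, 5 were called higher and 0 lower (5.07% and 1.38%). The additional calls were Ogn and Podnl1 in both. The median log2 ratio of the 7 members was 1.92, 0.66, 2.16 and 2.34 in Sets 1 to 4, beside medians over all genes of -0.01, 0.01, -0.01 and 0.00. Set 2, with the lowest Notch3, thus had the lowest member median, and whether the amount of Notch3 set it was not tested.

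Levels were compared between members as CPM (counts scaled by library size) per kilobase of exon, with exon lengths from GENCODE release M21. Bgn was the most abundant in both groups, at 86.7 ± 35.8 in Control and 279.9 ± 100 in Notch3IC (SD, n = 4), and Bgn stood first in every Control library except that of Set 3, where Dcn was at 63.3 against 61.7. By mean, Dcn came next in Control at 43.4 ± 25.2, with a range of 7.41 to 63.3 that overlapped that of Bgn (50.4 to 121.8), and Podnl1 followed at 11.0 ± 7.25. In the Control library of Set 1 Podnl1, at 21.7, stood above Dcn, at 7.41. Ogn at 0.771 ± 0.33 and Fmod at 0.666 ± 0.315 were far lower and overlapped. Podn (0.299 ± 0.24), Prelp (0.0791 ± 0.0621), Omd (0.0704 ± 0.0327), Aspn (0.0492 ± 0.0125) and Lum (0.0243 ± 0.0286) closed the order, with overlapping ranges between neighbours.

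By group mean, Fmod moved from the fifth place of the order to the second in the Notch3IC lines. Its level there was 91.5 ± 56.8 (range 18.7 to 153.3), below the range of Bgn (159.9 to 405.8), and its range overlapped those of Dcn at 31.4 ± 18.9 (4.22 to 47.3) and Podnl1 at 30.1 ± 13.3 (13.5 to 46.1). Prelp reached the fifth place at 6.04 ± 5.24 (range 0.573 to 13.2), and Ogn followed at 2.88 ± 2.22, with overlapping ranges. Podn (0.449 ± 0.507), Omd (0.123 ± 0.0635), Aspn (0.0373 ± 0.0298) and Lum (0.0202 ± 0.025) were last, Podn having been above Prelp in Control. The same ranks by mean were obtained per kilobase of coding sequence. In the Notch3IC library of Set 2, however, Dcn (39.85) stood above Fmod (18.7). In the Control libraries of Sets 1 and 2 Fmod stood above Ogn.

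The make-up of the pool of proteoglycan mRNA also differed between the conditions and between the sets. The summed level of the 10 members was 152, 182, 135 and 103 CPM per kilobase in Control (Sets 1 to 4 in order) and 544, 235, 527 and 464 in the Notch3IC libraries. Fmod contributed 0.431%, 0.613%, 0.35% and 0.409% of this sum in the Control libraries and 15.0%, 7.95%, 29.1% and 24.3% in the Notch3IC libraries. Dcn contributed 4.87%, 31.8%, 47.0% and 43.6% in the Control libraries and 0.776%, 17.0%, 8.97% and 7.37% in the Notch3IC libraries, so its share was lower in the Notch3IC library of each set. Bgn made up 80.1%, 62.0%, 45.8% and 48.9% in the Control libraries and 74.6%, 68.1%, 52.4% and 59.8% in the Notch3IC libraries, and was thus the main component of every pool apart from the Control pool of Set 3. These shares depend on each other, since they add up to the whole in each library. They also depend on the exon lengths used, 6099 bases for Bgn, 5838 for Dcn and 3306 for Fmod. The coding lengths are nearly equal (1107, 1062 and 1128 bases), and shares per kilobase of coding sequence were not computed.

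**Figure D3:**
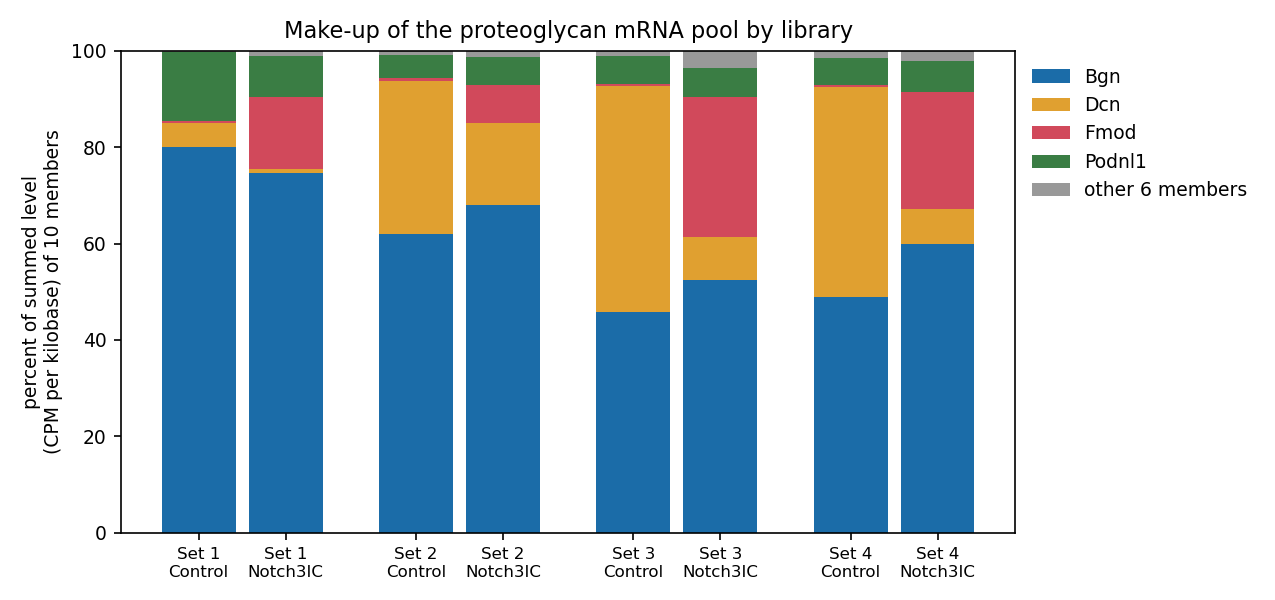
Percent of the summed level (CPM per kilobase of exon) of the 10 members in each library, by member. Fmod is below 1% in every Control library and between 7.95% and 29.1% in the Notch3IC libraries, and the Dcn share is smallest in Set 1 within each condition.

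The members did not all vary together over the 8 libraries. On log2 CPM, Pearson's r was 0.97 for Fmod with Prelp, 0.94 for Bgn with Podnl1, 0.92 for Bgn with Fmod and 0.86 for Bgn with Prelp. It was -0.49 for Dcn with Bgn, -0.21 for Dcn with Fmod and -0.66 for Dcn with Podnl1. For Dcn it was -0.11 with Prelp, but 0.34 with Ogn and 0.48 with Podn. These values describe 8 libraries that share the 2 conditions and the 4 sets. Of all genes tested, the pattern most like that of Bgn was that of Zfp862 (r = 0.996), followed by Hk1 (0.995), which encodes a hexokinase, and Zcchc14 (0.993). For Fmod these were Hmx3 (0.997), a homeobox gene, Itga9 (0.995), an integrin subunit, and Plxnd1 (0.993), a semaphorin receptor. For Prelp they were Xiap (0.987), an inhibitor of apoptosis, Ptprm (0.983), a receptor tyrosine phosphatase, and Cd93 (0.983), a membrane glycoprotein known from endothelium. In the order named, the log2 fold changes were 1.06, 0.42 and 0.67 for the genes like Bgn. They were 2.19, 6.70 and 5.92 for Fmod, and 0.33, 0.61 and 5.64 for Prelp. Hk1, Zcchc14, Xiap and Ptprm were not called. Pearson's r ignores the size of a change, and these genes are the highest of 12430 over 8 libraries.

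Fmod and Prelp, the pair with the highest correlation, are neighbours in the genome. In GENCODE release M21 they lie on chromosome 1 on opposite strands, with RefSeq start sites 115.9 kb apart, and Optc, the opticin gene of class III, lies on the other side of Prelp. Optc had 0 counts in all 4 Control libraries and 9, 2, 14 and 16 in the Notch3IC libraries, too few to pass the filter on low counts. DESeq2 called Optc (adjusted p = 0.000544), as did edgeR without the filter (adjusted p = 0.0333). The mean of Optc in the Notch3IC libraries was 3.34 times a floor of 3 counts averaged over the Control libraries. Optc was singled out after its values were seen. Btg2, an antiproliferative gene on the other side of Fmod, had a log2 fold change of 0.33 (adjusted p = 0.478 from edgeR). An antisense gene, Gm15851, covers 9.68% of the Prelp exon bases, and since the strand setting of the counting is not given in the sources used here, reads of the 2 genes there cannot be told apart.

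The other member clusters were mixed in level. On chromosome 10 Dcn lies beside Lum, and Dcn had at least 514 counts in each library where Lum had at most 4. On chromosome 13 Aspn, Omd and Ogn follow Ecm2 within the Cenpp gene, which runs on the opposite strand, overlaps 0.297% of the Aspn exon bases and had a log2 fold change of 0.27 (adjusted p = 0.316 from edgeR). Only Ogn of these 3 members passed the filter on low counts. On chromosome X Bgn lies between Haus7 (log2 fold change 0.19, adjusted p = 0.265) and Atp2b3, which had a single count in the 8 libraries. The 2 genes beside Podnl1 on chromosome 8, Dcaf15 and Cc2d1a, had log2 fold changes of -0.04 and -0.05 (edgeR), and Podn on chromosome 4 overlaps the Scp2 gene without shared exon bases. Scp2, a sterol carrier protein gene, was higher in the Notch3IC library of all 4 sets, with a log2 fold change of 0.64 and an adjusted p of 0.0786 from edgeR, short of the fold change for a call.

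The enzymes that build the sugar chains of these proteins were described from lists of genes known for these steps. Counts called in these and the later lists stand beside shares over all genes tested of 3.4% higher and 0.74% lower. Of 21 tested genes for the linker and for chondroitin and dermatan sulfate, 0 were called in either direction, with 7 higher and 1 lower at an unadjusted p under 0.05, 2 called higher with the replicate block and 1 by DESeq2, and a median log2 fold change of 0.28. Chpf2, a chondroitin polymerizing factor, had a log2 fold change of 0.06 (adjusted p = 0.850 from edgeR). It was the most abundant of them in the mean over all 8 libraries, but not in each library. Of 10 tested genes for keratan sulfate, the chain that Fmod and Lum can carry, 1 rose and 2 fell, with a median of -0.02. Chst2, a sulfotransferase acting on N-acetylglucosamine, rose from 333 ± 169.9 to 1539 ± 690.6 normalized counts (SD, n = 4; log2 fold change 2.21 ± 0.44 SE, adjusted p = 0.0387 from edgeR). B3gnt7 and B4galt4, the glycosyltransferases that extend keratan sulfate, fell by 1.66 and 1.11 on the log2 scale (adjusted p = 0.0444 and 0.0818 from edgeR). B4galt1, a galactosyltransferase of broad use and the most abundant of the list, had a log2 fold change of -0.54 (adjusted p = 0.211 from edgeR). Over the 8 fits that each left out 1 library, Chst2 and B3gnt7 were called in 4, losing the call without any 1 library of Sets 3 and 4 (highest adjusted p 0.129 and 0.152), and B4galt4 was called in 2, those without Control of Set 1 and without Notch3IC of Set 2 (0.242).

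Proteases that process or cut these proteins included 3 that rose among 7 tested, beside 3.4% of all genes tested. Bmp1, the procollagen C-proteinase that also removes the propeptide of biglycan, rose from 1737 ± 301 to 5258 ± 2172 normalized counts (SD, n = 4; log2 fold change 1.60 ± 0.31 SE, adjusted p = 0.0359 from edgeR). Adamts4, an aggrecanase, rose by 2.42 on the log2 scale (adjusted p = 0.0326 from edgeR), and the membrane metalloproteinase gene Mmp14, the most abundant of the list, by 1.27 (adjusted p = 0.0604). The median log2 fold change of the 7 was 0.71, and with the replicate block 3 were called higher and 2 lower. Of 12 tested receptor genes 2 rose, Egfr by 1.18 (adjusted p = 0.0802) and P2rx7, an ATP-gated channel, by 1.03 (adjusted p = 0.0583), with a median of 0.22, and the replicate block called 1 of them, Egfr. Lrp1, an endocytic receptor that takes up decorin, had a log2 fold change of 0.36 (adjusted p = 0.416 from edgeR). It was the most abundant of that list in every library except the Control library of Set 1, where Itgb1 was higher. Single libraries ended these calls too. Bmp1 and Adamts4 were called in 5 of the 8 fits that left out 1 library, but not without either Control of Sets 3 and 4 or the Notch3IC library of Set 4 (highest adjusted p 0.130 and 0.122). Mmp14 was called in 3, those without either library of Set 1 or the Notch3IC library of Set 2 (0.191), P2rx7 in 2, those without Control of Set 1 or Notch3IC of Set 2 (0.180), and Egfr in 1, that without Notch3IC of Set 2 (0.230).

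The collagens that the members bind and the larger proteoglycans were measured in the same fit. Of 7 tested fibrillar collagen genes all had positive log2 fold changes, with a median of 1.05, and 2 were called higher, beside 3.4% of all genes tested. Col3a1, the type III collagen chain, rose from 6129 ± 2244 to 15060 ± 5079 normalized counts (SD, n = 4; adjusted p = 0.0818 from edgeR), and Col5a3, a type V chain, rose by 4.46 ± 0.88 SE on the log2 scale (adjusted p = 0.0382). Col1a1, the most abundant, had a log2 fold change of 1.01 (adjusted p = 0.166) and was called with the replicate block, which called 5 of the 7. Among 14 large chondroitin sulfate proteoglycan and link protein genes 3 were tested and 1 rose, Cspg4, also named NG2, by 4.20 ± 0.57 SE (adjusted p = 0.0169 from edgeR), while Vcan, the versican gene and the most abundant, had a log2 fold change of -0.45 (adjusted p = 0.497). Of the other leucine-rich repeat proteoglycans 3 of 8 were tested and 0 were called in either direction, 0 also at an unadjusted p under 0.05 and 0 with the replicate block, while DESeq2 called 1, Optc. Cspg4 was called whichever single library was left out (adjusted p at most 0.0854), but not without the whole of Set 3 or Set 4 (0.215 and 0.221), Col5a3 in 5 of these 8 fits, but not without either Control of Sets 3 and 4 or the Notch3IC library of Set 4 (highest 0.122), and Col3a1 in 2, those without either library of Set 2 (0.219). Tsku, tsukushi, was the most abundant of the other leucine-rich repeat proteoglycans, with a log2 fold change of 0.29 (adjusted p = 0.616 from edgeR). Over all 7 lists 9 of 63 tested genes were called higher and 2 lower, beside 3.4% and 0.74% of all genes tested. The median log2 fold change of the 63 was 0.28, beside 1.69 for the members and -0.01 over all genes tested.

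**Figure D4:**
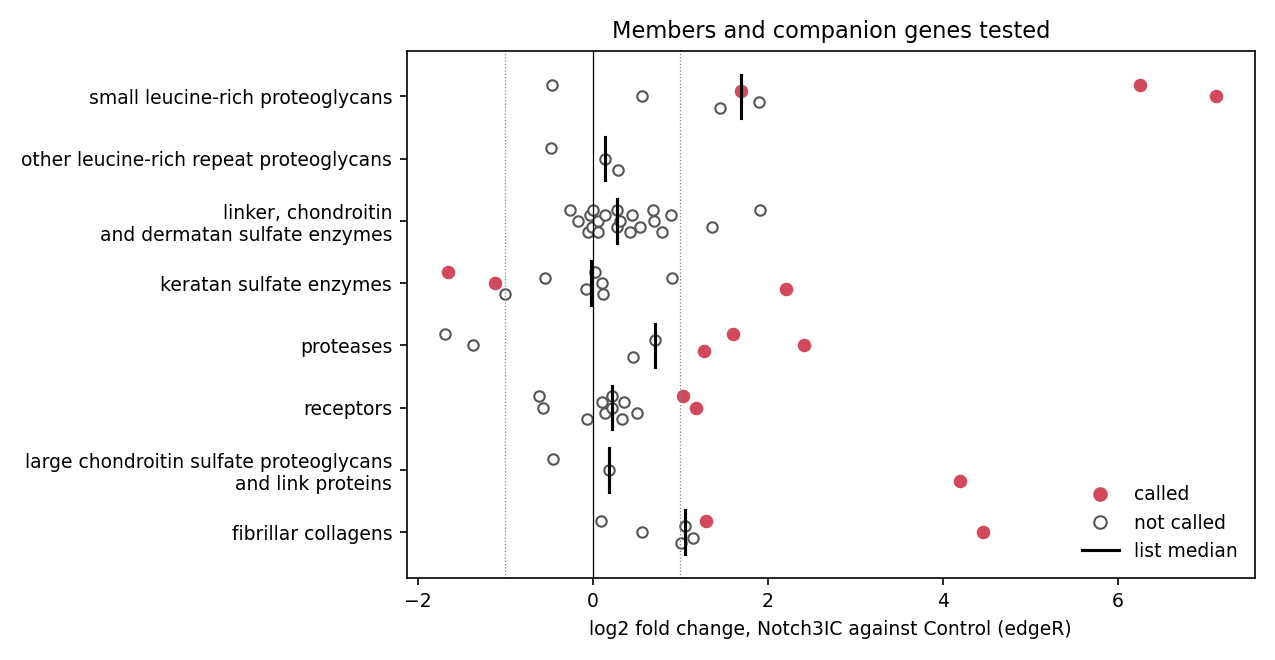
Log2 fold change, Notch3IC against Control (edgeR), of each tested member and of each tested gene in 7 lists of related genes. Filled points are called, open points are not, black bars are list medians, and dotted lines mark the log2 fold change of 1 in either direction. Fmod and Prelp, at 7.13 and 6.26, are farther to the right than any gene of the lists.

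Markers of the cell types that could supply these transcripts were measured beside the members. The labelled tissue is ovarian surface epithelium. Of its 10 markers, shared with mesothelium, 9 were tested, all 9 had negative log2 fold changes, and 2 fell, Msln by 2.60 and Upk1b by 2.19 on the log2 scale (adjusted p = 0.0625 and 0.0762 from edgeR). With the replicate block 5 were called lower. Msln was called in 4 of the 8 fits that left out 1 library, none of them without a library of Sets 3 or 4 (highest adjusted p 0.195), and Upk1b in 3, those without either library of Set 1 or the Notch3IC library of Set 2 (0.232). Their summed level was 26402, 47490, 74168 and 70731 normalized counts in Control (Sets 1 to 4 in order) and 8386, 30579, 27055 and 20976 in the Notch3IC libraries, with Upk3b the most abundant over all 8 libraries and Wt1 in the Notch3IC libraries of Sets 1 and 4. The sum was lower in the Notch3IC library of each set, the opposite direction to Bgn and Fmod. Of 6 other epithelial markers 2 were tested and 0 were called, with 1 lower at an unadjusted p under 0.05 and 1 called lower with the replicate block and by DESeq2. Their sum was 1941, 2772, 2003 and 2750 in the Control and 829.9, 2328, 993 and 721 in the Notch3IC libraries, mostly Krt14, while Epcam had at most 12 counts.

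Some fibroblast markers rose with the called members. Of 8 markers, which include Col1a1 and Col1a2 of the collagen list, 6 were tested and 2 were called higher (4 with the replicate block), Pdgfrb from 90.6 ± 82.0 to 5643 ± 3587 and Fap from 2.37 ± 2.54 to 590 ± 554 normalized counts (SD, n = 4; adjusted p = 0.0169 and 0.0247 from edgeR). Pdgfrb was called whichever single library was left out, and Fap in 6 of 8 such fits, but not without Control of Set 3 or of Set 4 (0.104 at most). Without the whole of Set 3 or Set 4 neither was called (adjusted p 0.215 and 0.221 for Pdgfrb, 0.246 and 0.286 for Fap, edgeR). Their sum was 170590, 122660, 90920 and 69843 normalized counts in the Control and 336420, 154210, 197830 and 245010 in the Notch3IC libraries, with Col1a1 the most abundant. Pdgfra and S100a4, both well expressed, were not called. Pdgfra had a log2 fold change of 0.49 (adjusted p = 0.592 from edgeR) and was lower in Set 2. S100a4 had one of -0.14 (adjusted p = 0.920 from edgeR) and was lower in 3 of the 4 sets. Thy1 had at most 2 counts in any library, and Pi16 had none apart from 1 count in the Notch3IC library of Set 2. Of 7 smooth muscle and pericyte markers 4 were tested and 1, Cspg4, was called higher (4 with the replicate block). DESeq2 called 2, Cspg4 and Rgs5, which edgeR's filter on low counts had removed. Rgs5 had 1, 2, 3 and 4 counts in the Control and 18, 3, 68 and 60 in the Notch3IC libraries (adjusted p = 0.00037 from DESeq2). The sum of the 7 markers, mostly Acta2, was 35627, 11296, 7429 and 2974 in the Control and 78795, 17716, 23609 and 15647 in the Notch3IC libraries. The part of these cell types or states in the rise of Bgn, Fmod and Prelp was not tested.

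Markers of cartilage and bone were mixed in level, and those of leukocytes and endothelium were low. Of 8 cartilage and bone markers 3 were tested, Runx2 (1809 ± 537 normalized counts in Control and 2563 ± 1127 in Notch3IC, SD, n = 4), Sox9 and Sp7, and 0 were called, 0 also at an unadjusted p under 0.05 and by DESeq2, while the replicate block called 1 lower. Acan and Col2a1, which define cartilage, had at most 2 and 3 counts in any library, Ibsp had 0 in the Control libraries, and the sum, mostly Runx2, was 2782, 2015, 1562 and 1662 in the Control and 4783, 2220, 1978 and 2259 in the Notch3IC libraries. Of 7 leukocyte markers 2 were tested and 1, Csf1r, was called higher (log2 fold change 1.52, adjusted p = 0.0719 from edgeR, called without either library of Set 2 and in none of the other 6 fits that left out 1, up to 0.228), with Cd3e and Adgre1 at 0 throughout, Ptprc at 0 apart from 2 counts in the Notch3IC library of Set 1, and a sum, mostly Cd68 apart from the Notch3IC library of Set 1, where Csf1r was the higher, of 56.5, 91.9, 89.0 and 127 in the Control and 82.8, 82.1, 86.4 and 121 in the Notch3IC libraries. Of 5 endothelial markers 2 were tested and 0 were called, 0 also at an unadjusted p under 0.05, with the replicate block and by DESeq2, and the sum, with Pecam1 the most abundant over all 8 libraries and Kdr in the Control library of Set 1, was 22.8, 37.0, 24.9 and 12.7 in the Control and 51.4, 27.8, 29.4 and 40.6 in the Notch3IC libraries.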

How the data were processed

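Polyadenylated RNA was measured in 4 Control and 4 Notch3IC lines (Sets 1 to 4). According to the study's methods and the submitters' processing notes, poly-A libraries were sequenced as single-end reads, aligned to mm9 with TopHat, quantified with Cufflinks and tested with DESeq. The authors deposited whole-number read counts per gene symbol, without normalization, and 17359 symbols had at least 1 count. The annotation and the strand setting are not given in the sources used here.

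Counts were tested with edgeR 4.0.16 in R 4.3.3 (TMM factors, the filterByExpr filter, and a robust quasi-likelihood F test on condition alone over all 8 libraries), and the SE is the log2 fold change divided by the square root of F. A simulated data set was used to check that the code recovers changes put in. It had the same dispersion for all genes and no set effects, so it cannot show how the fit performs on these libraries. Library totals ranged from 15524262 to 28208072 counts, and the biological coefficient of variation was 26.3%, or 14.1% with the set as a block. Each set is a matched pair by the study's description, and across genes, the deviations of its 2 libraries from the group means had correlations of 0.79, 0.40, 0.57 and 0.42, against -0.51 to 0.39 for crossed pairs. The sets therefore pair the libraries, and the replicate block is given where it changes a call. Ratios within sets used a pseudocount of 0.5 and conditional binomial 95% intervals. Exon lengths, neighbours and overlaps came from GENCODE release M21 (GRCm38) and 250-base promoter windows from RefSeq. Figures were drawn with Matplotlib 3.10.9.

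Alternatives were DESeq2 1.42.0, RLE, upper-quartile and no normalization factors, other filters and thresholds, a pseudocount of 5, the block, and leaving out each library and set. The members and lists were chosen with earlier results of these data known. Named were all members, the label genes, up to 4 called genes and the most abundant gene of each list, and the 3 genes most correlated with each called member. Pxylp1 and Adgre1 were counted under older symbols.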

Additional observations from a re-analysis of the deposited data

Results flagged for a closer look

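In 24 groups of 4 libraries, 3 values stood apart from the other 3 of their group by Dixon's criterion, where chance gives about 1 in 20. Podn had 120.2 normalized counts in the Notch3IC library of Set 2, against 12.9 to 25.7 in the other Notch3IC libraries. Podnl1 had 1799 in the Control library of Set 1, against 486.8 to 706.7 in the other Control libraries. Notch3 had 70.8 in the Control library of Set 3, against 38.7 to 42.0 in the others.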

How the results depend on the processing

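RLE and upper-quartile normalization, library totals, no expression filter and a filter on a mean of 1 CPM each called 3 members, as did an adjusted p under 0.05 and no fold-change limit. In this order the genes called higher over all numbered 416, 431, 395, 543, 395, 290 and 622, beside 423 in the main fit. Those called lower numbered 93, 88, 82, 103, 80, 48 and 210, beside 92. DESeq2 called 5 members and 707 genes higher and 192 lower over all. The replicate block, which pairs the libraries of a set, called 5 members, with 645 genes higher and 315 lower over all and 4 related genes lower. The block with no expression filter, chosen after seeing the data, called 5 members, with 756 and 314 genes over all and 4 related genes lower. Related genes called lower numbered 1 with library totals, with the mean filter and at an adjusted p under 0.05, which also gave 5 related genes higher and 48 genes lower over all. Without a fold-change limit 210 genes were called lower over all.

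Leaving out single libraries moved the members called higher between 1 and 5, and the fits that left out any single library, or a set, ranged from 0 to 5 members higher and 0 lower throughout, with medians from 1.44 to 2.04. Related genes ranged from 0 to 14 higher and 0 to 5 lower, and all genes from 0 to 702 higher and 0 to 305 lower. Without Set 3 or Set 4 edgeR called 0 members (4 and 3 higher at an unadjusted p under 0.05, as were 6.49% and 5.99% of all genes). Over all genes these fits called 1 and 0 higher and 0 lower. Notch3, Hey1 and Heyl were each called in 10 of the 12 fits that left out a library or a set. Their adjusted p was at most 0.0854 without 1 library and 0.221 without a set (edgeR). With the replicate block, chosen after seeing the data, the fit without Set 1, 3 or 4 called 0 members (5 higher at an unadjusted p under 0.05 in each, beside 13.8%, 11.4% and 10.9% of all genes) and without Set 2 it called 5. In these fits the related genes ranged from 0 to 17 higher and 0 to 5 lower, and all genes numbered 46, 904, 59 and 129 higher and 23, 426, 22 and 30 lower without Sets 1 to 4 in turn. Fmod alone was called when either Control library of Sets 3 and 4 was left out, and Fmod and Prelp when either Notch3IC library of these sets was. Over all genes these fits called 75 and 99 higher without Control of Set 3 or 4. Without Notch3IC of Set 3 or 4 they called 201 and 155, beside 423 in the main fit. Podnl1 was added when the Control library of Set 1 was left out, and Ogn and Podnl1 when the Notch3IC library of Set 2 was.

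Of the single genes, the log2 fold change of Podn ranged from -0.59 (Notch3IC library of Set 2 left out) to 1.16 and was -0.047 with the replicate block without Set 1, and that of Chpf2 ranged from -0.024 (Control library of Set 1 left out) to 0.16. P2rx7 was not called with library totals or with the block (0.98 in both), and B4galt4 not with library totals (adjusted p = 0.109). Over all single genes and alternatives, 780 values kept their direction and their side of the threshold, 177 lost a call and 22 gained one. The causes were not tested. Depth limits Lum, Aspn and Omd, and the Control counts of Prelp limit its ratios.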
